A study of Mus musculus with 8 samples.

Results

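The genes described here are 36 targets and regulators of the transcription factor p53 other than Cdkn1a, the gene of the cell cycle inhibitor p21, in embryonic mouse lung with and without an epithelial deletion of Ezh2. They were taken by name from a list. A gene counted as measured where a probe set of the array carried its symbol alone, and where a gene had several such probe sets the brightest on average stood for it. This gave 32 measured members among 22180 named genes. Trp53, Bax and Gdf15 were not analysed here, and Ddb2 was left out because its only probe set was shared with a second gene. The level of the p53 transcript is therefore not part of what follows.

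p53 is held at a low level in unstressed cells by the ubiquitin ligase Mdm2 and by Mdm4, and is stabilised by DNA damage, oncogene activity and other stresses. It then binds response elements built from paired half-sites and turns on genes that stop the cell cycle, repair DNA or trigger cell death, together with genes such as Mdm2 and Ppm1d that switch p53 off again. Members were split by these roles into feedback and regulator genes, arrest and growth control genes, apoptosis genes, and repair and metabolism genes.

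The 4 mutant embryos carried the Shh-cre driver and 2 floxed Ezh2 alleles (Shh-cre:Ezh2-flox/flox), and the 4 control embryos carried Shh-cre without floxed alleles, so both groups share the Cre driver. Embryos of both groups were at embryonic day 14.5 on a mixed C57BL/6 x 129S6 background, and each array held the RNA of the whole lungs of 1 embryo. Shh-cre is active in the lung epithelium, whereas the arrays also hold mesenchyme, vessels and blood, and in such bulk samples a change in the number of cells of a type and a change in RNA per cell cannot be told apart. Ezh2 is the histone methyltransferase of Polycomb repressive complex PRC2. There were 4 litters of 2 embryos with a single genotype in each, and therefore litter and genotype cannot be fully separated. Controls 1 and 2 were litter 1, controls 3 and 4 litter 2, mutants 1 and 2 litter 3, and mutants 3 and 4 litter 4. Values are log2 expression, on which a difference of 1 is a doubling. Ezh2 itself had a log2 change of −0.09 ± 0.05 (SE) in mutants (adjusted p 0.652). All 4 mutants (11.75 to 11.80) lay below all 4 controls (11.83 to 11.93), as was so for 3.6% of all genes. Where the probes of Ezh2 lie relative to the floxed exons is not known here. The summed level of 19 lung epithelial markers was 14.79 to 15.02 in controls and 14.79 to 14.87 in mutants on the log2 scale. The sum was taken before the log2 step, so the brightest markers weigh most. The log2 change was below 0 in 14 of the 19.

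Promoter sequences are shown because p53 acts by binding such elements, and members that moved together can be set beside the letters of their promoters. RefSeq windows of 300 bases, from 250 before to 50 after an annotated transcription start in GRCm38.p6, were found for 25 of the 32 measured members (34 windows, some overlapping). They were searched for the consensus p53 half-site, 10 bases long and equal to its own reverse complement, so that one scan reads both strands. A paired site was counted where 2 half-sites lay 0 to 13 bases apart, each with the C and G of its core, and together at most 3 bases off the consensus, so a paired site can contain a perfect half-site. A perfect half-site occurred in 11 of the 34 windows (32.4%) against 8.36% of all 32851 windows, and a paired site in 13 (38.2%) against 15.6%. Paired sites with no gap and at most 1 base off occurred in 0.067% of all windows, a limit set after the matches were seen. Among measured members 2 genes held one, Ccng1 and Gtse1, and both were among the 8 genes that rose. Of these 8, only 5 had a window, and Perp, Zmat3 and Trp53inp1 had none. At the limits first searched, a half-site occurred in 2 of 6 windows of genes that rose (33.3%) and in 9 of 28 of the other members (32.1%), and a paired site in 2 of 6 (33.3%) and 11 of 28 (39.3%). The 5 genes shown are the measured members with a paired site at most 2 bases off. Half-sites are in capitals, written along the strand of the gene.
Ccng1: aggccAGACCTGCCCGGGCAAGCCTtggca
Gtse1: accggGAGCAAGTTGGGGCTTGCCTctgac
Ckap2: tctgaAGACATGTCCTGACTTGTCAagcct
Trp73: tctccGGGCAAGCTGAGGCCTGCCCtgagt
Sesn1: gctggGCGCTTGGCCttcAAGCTTGTTTtt
These stretches lie at chr11:40755457-40755486 (minus strand), chr15:85859940-85859969 (plus), chr8:22185998-22186027 (minus), chr4:154097215-154097244 (minus) and chr10:41887248-41887277 (plus). Counted from the start of transcription, the site of Ccng1 begins at position −195 and that of Gtse1 at −1, beside one of its 2 annotated starts. Ckap2, Trp73 and Sesn1 did not pass the test, with log2 changes of 0.05, 0.00 and 0.05. A match describes letters in this window and is not evidence of binding, and known sites of several members lie outside it.

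Of the 32 measured members, 8 were higher in mutant lungs, 0 were lower and 24 did not pass. By size of change the 8 were Eda2r, Ccng1, Perp, Zmat3, Trp53inp1, Phlda3, Gtse1 and Sesn2. Over all 22180 genes 134 were higher (0.604%) and 55 lower (0.248%), in counts that became 113 and 74 when each array was centred on its median. Calls here and below come from limma with litter as a random block, at a Benjamini-Hochberg adjusted p of 0.05 over all genes. Adjusted p values are of this kind, except those of the gene pairs and of the alternative fits, which are named where given. All 4 mutants lay above all 4 controls for 14 members, against 4.48% of all genes, and 0 members had all mutants below all controls, against 3.6%. The log2 change was above 0 in 26 of 32, against 52.9% of all genes, and its median was 0.13, against 0.01 for all genes. An unadjusted p under 0.05 was reached by 14 members, all of them higher, against 5.61% of all genes that were higher at this limit.

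**Figure D1:**
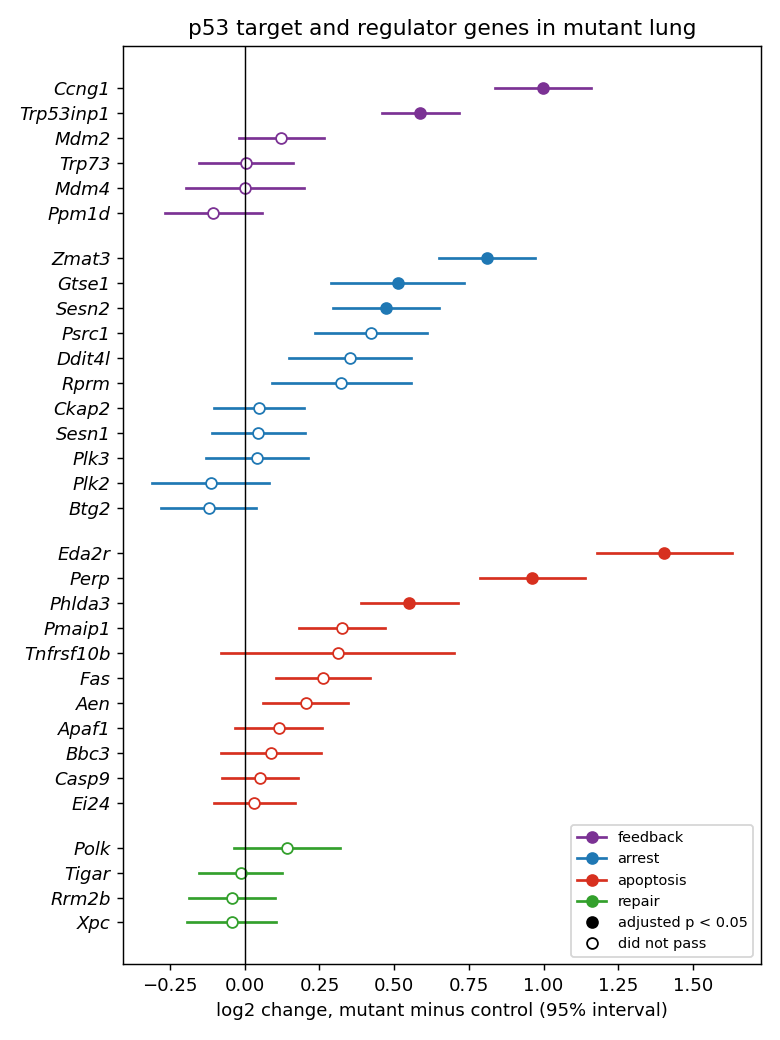
Log2 change, mutant minus control, of the 32 measured members with its 95% interval from limma, grouped by role and ordered by size, with filled points for genes past an adjusted p of 0.05. The 8 filled points run from Sesn2 at 0.47 to Eda2r at 1.40, and the 4 repair genes lie around 0.

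Of 6 measured feedback and regulator genes, Ccng1 and Trp53inp1 rose and 4 did not pass. Ccng1 (chr11:40748552-40755309 in GRCm38.p6) encodes cyclin G1, which recruits a phosphatase to Mdm2 and so dampens p53. Its log2 values were 10.88, 10.82, 11.00 and 10.94 in controls 1 to 4 and 11.97, 11.75, 11.94 and 11.97 in mutants 1 to 4. Every mutant exceeded every control, and mutant 2 was the lowest of its group. The log2 change was 1.00 ± 0.07 (SE), a 2-fold level (95% interval 1.79 to 2.23), and the adjusted p was 4.48e-05.

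Trp53inp1 encodes a stress-induced nuclear protein that promotes phosphorylation of p53. Its log2 values were 9.06, 8.99, 9.17 and 9.10 in controls and 9.66, 9.64, 9.68 and 9.68 in mutants. The mutants had an SD of 0.02 and lay above every control. The log2 change was 0.59 ± 0.06 (SE), and the adjusted p was 5.76e-04.

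Mdm2, the main ubiquitin ligase of p53 and a classical p53 target, had log2 values of 9.61, 9.53, 9.76 and 9.64 in controls and 9.74, 9.77, 9.80 and 9.72 in mutants, and the groups overlapped through control 3 alone. Its log2 change was 0.12 with a 95% interval of −0.02 to 0.26 and did not pass. That interval ends far below the 1.00 of Ccng1. Mdm4, the partner of Mdm2 that masks the activation domain of p53, had a log2 change of 0.00 (−0.20 to 0.20). Ppm1d, the phosphatase Wip1 that ends the damage signal, had −0.10 (−0.27 to 0.06), and the p53 paralogue Trp73 had 0.00 (−0.15 to 0.16). None of these 4 passed.

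Of 11 measured arrest and growth control genes, 3 rose, 0 fell and 8 did not pass. Zmat3, an RNA-binding zinc finger protein induced by p53, had log2 values of 8.29, 8.20, 8.11 and 8.10 in controls and 9.08, 8.88, 9.05 and 8.93 in mutants. The groups lay apart, and its log2 change was 0.81 ± 0.07 (SE), or 1.75-fold, at an adjusted p of 2.54e-04. Gtse1, a microtubule-associated protein of G2 and S phase that binds p53 and moves it out of the nucleus, had log2 values of 9.06, 8.77, 9.07 and 9.00 in controls and 9.53, 9.29, 9.47 and 9.66 in mutants. The groups did not overlap, but both spread more than those of Zmat3. Its log2 change was 0.51 ± 0.10 (SE), and the adjusted p was 0.0448, just inside the threshold. Sesn2, a sestrin that restrains mTORC1 and protects against oxidants, had log2 values of 7.48, 7.32, 7.46 and 7.42 in controls and 7.83, 7.72, 7.99 and 8.03 in mutants, with litter 4 above litter 3. Its log2 change was 0.47 ± 0.08 (SE), and the adjusted p was 0.02. Both calls depended on single embryos. Gtse1 did not pass without control 2, 3 or 4 or without mutant 1, 3 or 4, with an adjusted p of 0.0669 to 0.173, and Sesn2 did not pass without control 2, control 4 or mutant 4, with an adjusted p of 0.0548 to 0.0843.

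Psrc1, a spindle protein, lay just outside the threshold. Its log2 values were 9.67, 9.69, 9.99 and 9.94 in controls and 10.21, 10.24, 10.18 and 10.34 in mutants, with no overlap and with litter 1 below litter 2 among controls. Its log2 change was 0.42 ± 0.08 (SE) at an adjusted p of 0.0504, and it passed without control 3 at an adjusted p of 0.0384. Ddit4l, an inhibitor of mTORC1 signalling, and Rprm, which arrests cells in G2, had log2 changes of 0.35 (0.15 to 0.56) and 0.32 (0.09 to 0.55) with no overlap between groups, and neither passed. The remaining 5 lay near 0. They were Ckap2, a microtubule protein of mitosis (0.05), Sesn1, the paralogue of Sesn2 (0.05), the Polo-like kinases Plk3 (0.04) and Plk2 (−0.11), and Btg2, an antiproliferative gene also induced in the immediate early response (−0.12), all given as log2 change.

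All 11 measured apoptosis genes had a log2 change above 0 in this fit, and 3 of them rose; for Ei24 the sign turned in 2 of 28 alternatives. Eda2r, a receptor of the TNF family for ectodysplasin A2, lies on the X chromosome (chrX:97333837-97377234) and showed the largest change of any member. Its log2 values were 6.32, 6.20, 6.21 and 5.83 in controls and 7.60, 7.53, 7.50 and 7.54 in mutants. Control 4 was the lowest embryo, and the mutants were nearly alike. The log2 change was 1.40 ± 0.10 (SE), or 2.65-fold (95% interval 2.26 to 3.09), and the adjusted p was 4.48e-05, the 10th largest increase among all 22180 genes. By Xist, controls 1 and 2 and mutant 3 were male, with log2 Xist values of 6.37 to 6.74 against 12.62 or more in the rest. Eda2r in mutant 3 was 7.50, against 7.53 to 7.60 in the other 3 mutants. Among controls it was 6.32 and 6.20 in the males and 6.21 and 5.83 in the females. Sex and litter coincide there and cannot be told apart.

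Perp, a tetraspan protein of desmosomes that is a target of p53 in apoptosis and of p63 in stratified epithelia, had log2 values of 7.62, 7.64, 7.75 and 7.51 in controls and 8.70, 8.70, 8.48 and 8.51 in mutants. Litter 3 exceeded litter 4, and both were above all controls. Its log2 change was 0.96 ± 0.08 (SE), or 1.95-fold, and the adjusted p was 1.36e-04. Phlda3, which blocks Akt at the membrane, had log2 values of 9.41, 9.15, 9.39 and 9.29 in controls and 9.85, 9.92, 9.83 and 9.83 in mutants. The groups did not overlap, and its log2 change was 0.55 ± 0.07 (SE) at an adjusted p of 0.0048.

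Pmaip1 and Bbc3 encode Noxa and Puma, the BH3-only proteins through which p53 opens the mitochondrial route to cell death. Pmaip1 had log2 values of 6.85, 6.95, 6.80 and 6.71 in controls and 7.11, 7.13, 7.18 and 7.20 in mutants, with no overlap. Its log2 change was 0.32 ± 0.07 (SE), and its adjusted p of 0.0504 lay just outside the threshold. It passed without control 2, at an adjusted p of 0.0321. Bbc3 had a log2 change of 0.09 (−0.08 to 0.26), and its mutant values of 6.51, 6.37, 6.65 and 6.46 overlapped the control values of 6.40, 6.32, 6.51 and 6.40. Averaged over all arrays Bbc3 was the dimmest member, at percentile 31 of all genes, followed by Trp73 at percentile 33. For such dim genes, without detection calls, no change and too little signal cannot be told apart. In controls alone Eda2r had the lowest mean of any measured member, 6.14 against 6.41 for Bbc3. The size of its change therefore rests on dim control values.

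The death receptor Fas and the exonuclease gene Aen had log2 changes of 0.26 (0.10 to 0.42) and 0.20 (0.06 to 0.34). In both genes all mutants lay above all controls, without passing the test over all genes. Tnfrsf10b, the mouse receptor for TRAIL, was the most variable member. Its log2 values were 9.09, 9.66, 9.12 and 9.04 in controls and 9.97, 9.39, 9.32 and 9.47 in mutants, so that control 2 and mutant 1 stood above the rest of their groups and the change of 0.31 had an interval of −0.08 to 0.70. Apaf1 and Casp9, which form the apoptosome, had log2 changes of 0.11 and 0.05, and Ei24, an endoplasmic reticulum protein, had 0.03. None of these 3 passed, and their intervals ended at 0.26, 0.18 and 0.17.

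None of the 4 measured repair and metabolism genes passed by limma, and 0 of them had an unadjusted p under 0.05. Rrm2b, the p53-induced subunit of ribonucleotide reductase, had a log2 change of −0.04 (−0.19 to 0.10). Xpc, which recognises damage in nucleotide excision repair, had −0.04 (−0.19 to 0.11), and Polk, a translesion DNA polymerase, had 0.14 (−0.04 to 0.32). Tigar, a phosphatase that diverts glucose from glycolysis, had −0.01 (−0.15 to 0.12). Their highest upper bound, 0.32 for Polk, is below the lower bounds of Ccng1, Perp, Zmat3, Eda2r, Trp53inp1 and Phlda3, the lowest of which is 0.39. Those genes were picked by this same contrast, so the gap does not set the repair role apart. Members of other roles, such as Mdm4 (0.00) and Ckap2 (0.05), also lay near 0.

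**Figure D2:**
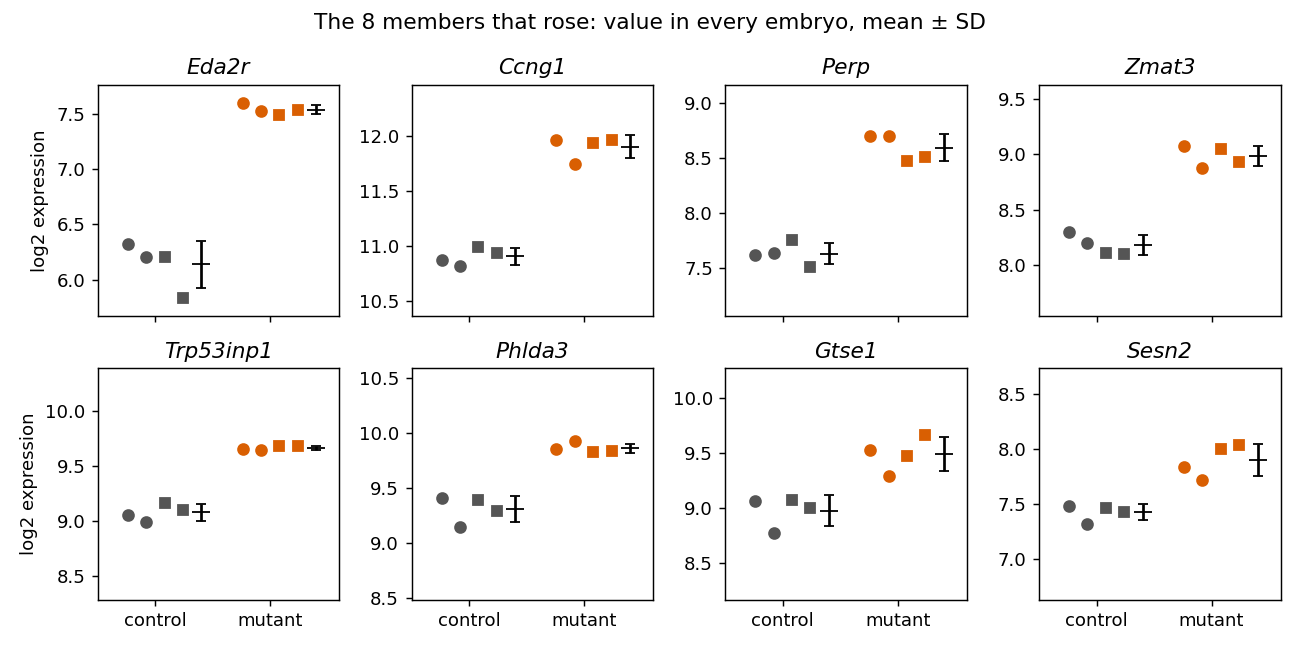
Log2 expression in each embryo (grey controls, orange mutants) of the 8 members that rose, with circles for the first and squares for the second litter of a genotype, black marks for the group mean ± SD (n = 4), and the same span on each vertical axis. All 4 mutants lie above all 4 controls in each panel, with the widest gap for Eda2r and the narrowest for Gtse1 and Sesn2.

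The rise was present in each of the 4 mutants. Averaged over the 8 genes that rose, which were chosen by this contrast, the log2 deviation from the control mean was 0.82, 0.72, 0.79 and 0.82 in mutants 1 to 4 and −0.07 to 0.07 in controls. Mutant 2 was the lowest mutant for 5 of the 8 genes and control 2 the lowest control for 5. Over all 32 measured members the deviations were 0.29, 0.25, 0.26 and 0.29 in mutants, against −0.03 to 0.04 in controls. By role the mutants ranged over 0.25 to 0.29 for feedback genes, 0.21 to 0.29 for arrest genes, 0.37 to 0.43 for apoptosis genes and −0.04 to 0.07 for repair genes. The 8 genes lie on chromosomes 1, 3, 4, 10, 11, 15 and X, and those on chromosome 4, Trp53inp1 and Sesn2, start at 11156441 and 132492804, so they are not neighbours.

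**Figure D3:**
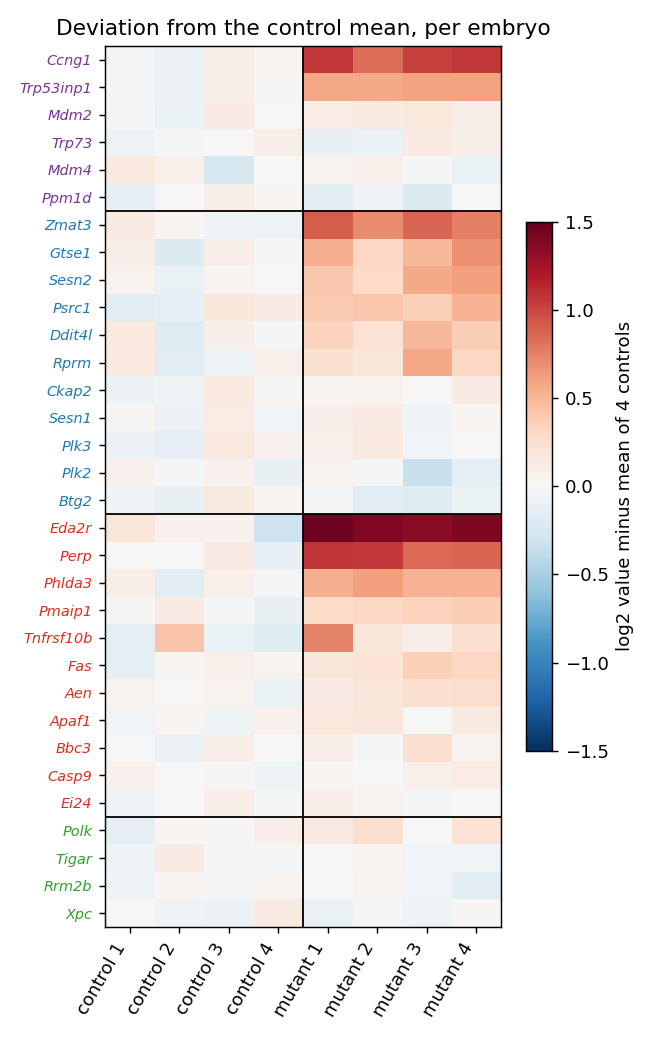
Log2 value of each measured member in each embryo minus the mean of the 4 controls, with genes grouped by role (feedback purple, arrest blue, apoptosis red, repair green) and ordered by change. Red fills the 4 mutant columns for the upper genes of the first 3 roles, while the lower genes and all 4 repair genes stay pale in all embryos; Tnfrsf10b is high in control 2 and mutant 1.

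Members of the same family were compared in 7 pairs by the difference of their log2 values in each embryo, with a two-sided exact permutation test over embryos that takes littermates as independent. With 4 against 4 the smallest p is 0.0286, and the pairs were chosen after the values were seen. Eda2r changed by 1.14 more than Fas (exact p 0.0286, 0.0667 after Benjamini-Hochberg adjustment over 7 pairs) and by 1.09 more than Tnfrsf10b (exact p 0.0286, adjusted 0.0667). Sesn2 changed by 0.43 more than Sesn1 (exact p 0.0286, adjusted 0.0667). In these 3 pairs the groups did not overlap, and none passed after adjustment. Pmaip1 exceeded Bbc3 by 0.24 (exact p 0.0857, adjusted 0.15), Plk3 exceeded Plk2 by 0.15 (exact p 0.2, adjusted 0.28), Mdm2 exceeded Mdm4 by 0.12 (exact p 0.343, adjusted 0.4), and Fas and Tnfrsf10b differed by −0.05 (exact p 0.743, adjusted 0.743).

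Further lists of the pathway were tested in the same fit. Among 32 other measured p53 targets, 3 rose, 1 fell and 28 did not pass, with a median log2 change of 0.13. Cdkn1a rose by 2.24 on the log2 scale, more than any member, and Trp53cor1, the noncoding RNA beside it, by 0.38. Ephx1, a microsomal epoxide hydrolase, rose by 0.71, from 7.17 ± 0.18 (SD, n = 4) to 7.88 ± 0.12 (SD, n = 4), and the adjusted p was 0.00487. Trim21, an antibody receptor and ubiquitin ligase, had a log2 change of −0.50, the single target that fell. Trp53cor1 did not pass without control 3 or 4 or without mutant 1 or 4 (adjusted p 0.0598 to 0.118), and Trim21 passed only without control 2 or mutant 4 among the 8 fits that left out 1 embryo (adjusted p 0.0581 to 0.145 in the others). Without Cdkn1a and Trp53cor1 the list had 1 gene higher and 1 lower of 30. The log2 change was above 0 in 23 of these 30, against 52.9% of all genes. All mutants lay above all controls for 7 of them, against 4.48% of all genes, and below for 1, against 3.6%. An unadjusted p under 0.05 was reached by 13, and 11 of these were higher, against 5.61% of all genes that were higher at this limit.

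A list of 28 genes, chiefly ones acting upstream of p53 such as the damage kinases Atm, Atr, Chek1 and Chek2, also held the p53 paralogue Trp63. In this list 2 genes rose, Cdkn2a and Trp63, 0 fell and 26 did not pass, and the median log2 change was −0.02. Cdkn2a, which has p19Arf, an inhibitor of Mdm2, among its products, rose by 0.49. Its log2 values were 7.77, 7.93, 7.66 and 7.58 in controls and 8.24, 8.24, 8.14 and 8.27 in mutants. The values are for the gene and do not tell which of its products rose. Trp63, the paralogue of p53 that governs basal cells, rose by 0.71, with log2 values of 6.68, 6.56, 6.50 and 6.41 in controls and 7.28, 7.10, 7.25 and 7.35 in mutants. In both genes all mutants lay above all controls. Cdkn2a did not pass without control 3, control 4 or mutant 4, with an adjusted p of 0.0508 to 0.0718. The 4 damage kinases did not pass, at log2 changes of −0.04 for Atm, −0.04 for Atr, −0.15 for Chek1 and −0.13 for Chek2. All mutants lay below all controls for Chek1, at an unadjusted p of 0.0264, and for 3 of the 28 genes in all, against 3.6% of all genes.

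None of 34 cell cycle genes that p53 lowers through p21 passed by limma, where 1 had an unadjusted p under 0.05, against 2189 of all 22180 genes. Their log2 change was below 0 in 24 of 34, against 10452 of 22180, with a median of −0.04. All mutants lay below all controls for 3 of the 34, against 3.6% of all genes, and above all controls for 0, against 4.48%. These 3 were Mcm3 (−0.23), Mcm5 (−0.09) and Mcm6 (−0.11), which encode subunits of the replicative helicase. Of them only Mcm3 had an unadjusted p under 0.05, and for the further helicase gene Mcm2 (−0.04) the groups overlapped. None of 18 further genes of the death machinery, such as the BCL2 family and caspases, passed either, with 13 at a log2 change below 0 and a median of −0.03. The 1 gene with an unadjusted p under 0.05 was Bid, which was higher, at a log2 change of 0.26. In controls and mutants the mean deviation of the cell cycle list was −0.04 to 0.05 and −0.08 to 0.00, so the groups overlapped.

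Some markers of another epithelium were higher in the same embryos. Of 19 markers of basal and stratified epithelium, 8 rose, 0 fell and 11 did not pass. The log2 of the list's summed level was 11.48 to 11.53 in controls and 11.99 to 12.05 in mutants. The largest rises were those of Krt15 (2.04), Dapl1 (1.28), Krt4 (1.22) and Krt17 (1.17), and Trp63 belongs to this list as well. Among those that did not pass, the keratins Krt14, Krt13 and Krt6a had log2 changes of −0.06, −0.01 and 0.02, and Ngfr, a receptor found on basal cells, had 0.02. Perp is itself a gene of such epithelia. The part of these cells in the rise of Perp, Eda2r and the other members was not tested. Of 19 lung epithelial markers, 0 rose and 1 fell, Foxa1, with a log2 change of −0.56. The log2 change was below 0 in 14 of the 19, against 10452 of all 22180 genes. An unadjusted p under 0.05 by limma was reached by 9 (1 of them higher), against 2189 of all genes. All mutants lay below all controls for 7, against 3.6% of all genes. Among these were Cldn18 (−0.41), a tight junction gene, Etv5 (−0.33), a transcription factor of the distal tip, Shh (−0.28) and Epcam (−0.26), which did not pass over all genes. The list's mean deviation still overlapped, at −0.11 to 0.10 in controls and −0.14 to −0.05 in mutants. Its part in the members' changes was not tested. None of the 14 mesenchymal, 10 endothelial, 7 erythroid, 10 macrophage, 10 heart, 9 liver and 6 thymus markers passed by limma. Of these, 2, 1, 0, 0, 1, 0 and 0 had an unadjusted p under 0.05. The mean deviation of the mesenchymal list was −0.02 to 0.02 in controls and 0.04 to 0.07 in mutants, so all mutants lay above all controls, by far less than for the members, and its part in their changes was not tested. The groups overlapped in the mean deviation of the other 6 lists.

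Stress programmes that share members with p53 were also measured. None of 14 genes of the immediate early response, in which Btg2 and Plk2 are also induced, passed by limma. Of these 14, 2 had an unadjusted p under 0.05, against 2189 of all 22180 genes. Among 12 genes of the ATF4 response, which also controls Sesn2, Sesn2 was the single gene that passed, and 4 had an unadjusted p under 0.05. Besides Sesn2 these were Chac1, a glutathione-degrading enzyme, at a log2 change of 0.20, the asparagine synthetase gene Asns at −0.18 and the cystine transporter gene Slc7a11 at −0.16. Trib3 and Ddit3 had log2 changes of 0.00 and −0.12. None of 14 hypoxia genes passed by limma, and 0 had an unadjusted p under 0.05.

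**Figure D4:**
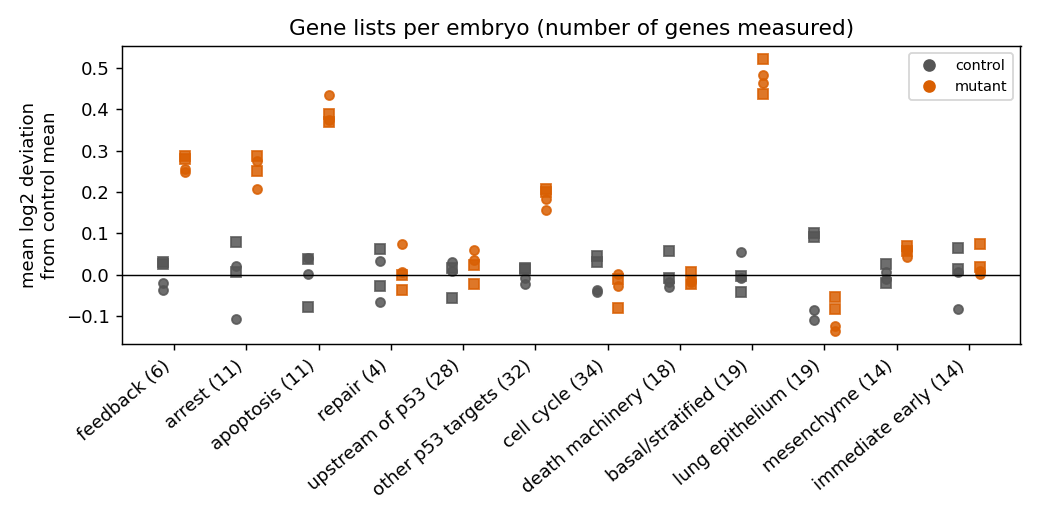
Mean log2 deviation from the control mean for each embryo over the measured genes of each list (number in brackets), with grey points for controls, orange for mutants and circles and squares for the 2 litters of a genotype. Mutants lie above controls for the feedback, arrest, apoptosis, other p53 target, basal or stratified and mesenchyme lists, least for the last, and overlap with controls for the repair, upstream, cell cycle, death machinery, lung epithelium and immediate early lists.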

How the data were processed

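Each of 8 arrays held RNA from the whole lungs of 1 mouse embryo, 4 per genotype. Per the labels' protocols, 100 ng of total RNA was amplified from a poly(T) primer and biotin-labelled. The authors deposited log2 values for each probe set, made with RMA in oligo per the submitters' processing notes, with versions and options not given in the sources used here. This step makes array distributions alike and draws changes of dim genes towards 0. There are no detection calls, and the number of arrays limits precision.

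Of 41345 probe sets, 23521 had a single gene symbol, 1814 had several and 16010 were not listed in the annotation. The probe set with the highest mean stood for each of 22180 genes. A RefSeq table of GRCm38.p6 held 23328 of the single names by gene number and updated 0 symbols. The genotype test used limma 3.58.1 under R 4.3.3 (litter as a random block, consensus correlation 0.153, empirical Bayes, Benjamini-Hochberg adjustment over 22180 genes, two-sided, threshold 0.05). Intervals are 95%.

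The members and gene lists were chosen with earlier results of these data known, and no set test was run. Named genes are all measured members, Cdkn1a, Trp53cor1 and Ezh2, and from each other list up to 6 genes that passed; further genes named with values did not pass and were chosen after their values were seen. The alternatives covered litters, embryos left out, dim genes, scaling, probe sets, variance prior, array weights, sex by Xist and threshold. Figures were drawn with matplotlib 3.10.9 in Python 3.11.15.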

Additional observations from a re-analysis of the deposited data

Results flagged for a closer look

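Over the measured members, 64 sets of 4 values were examined for an embryo lying far from its group, which by chance flags about 1 in 20, or 3.2, and 2 such values were found. Mutant 2 was lowest for Ccng1 (log2 value 11.75), with the other 3 mutants at 11.94 to 11.97, and still lay above every control. Control 2 was highest for Tnfrsf10b (log2 value 9.66), with the other 3 controls at 9.04 to 9.12.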

How the results depend on the processing

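Over 28 alternatives the count of higher members ran from 6 to 11, and 0 members were lower in each. Eda2r, Ccng1, Perp, Zmat3, Trp53inp1 and Phlda3 passed in all 28, Sesn2 in 19, Gtse1 in 16, Psrc1 in 12, Pmaip1 in 8 and Ddit4l in 1, with Xist as covariate. No other member passed in any of them, and Bbc3 and Trp73, which fell below the group mean limit of 7, were tested in 27. Leaving out 1 embryo gave 73 to 157 genes higher and 28 to 75 lower over all genes, and 6 to 8 members higher. The counts of all genes higher and lower were 65 and 33 with littermates averaged, 77 and 26 with all probe sets tested, 361 and 313 with Xist as covariate, 71 and 24 at a threshold of 0.01, 75 and 23 without litter 4, and 98 and 90 without litter 1. Lower genes numbered 95 without the litter block, 91 after quantile normalization, 90 after cyclic loess and 96 at a threshold of 0.10. Outside the members, Cdkn1a and Trp63 passed in all 28, Ephx1 in 26, Cdkn2a in 19, Trp53cor1 in 17 and Trim21 in 15. The causes were not tested. With the replicate number as a block, 8 members, 140 genes higher and 55 lower were called, and Trp53cor1 and Trim21 did not pass (adjusted p 0.0638 and 0.0504). The numbers do not pair embryos across litters: same-numbered embryos had deviations correlated at −0.23, −0.05, −0.27 and 0.03. Fits without a litter had no litter block.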
